A study of Homo sapiens with 17 samples.

Results

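A set of 10 genes of antioxidant defence is described here: the superoxide dismutases SOD1 and SOD2, the transcription factor NRF2 (gene NFE2L2) and 7 genes that NRF2 controls or that supply its pathway (NQO1, HMOX1, GCLC, GCLM, TXNRD1, SRXN1 and SLC7A11). They were taken by gene symbol as a named set, SLC7A11 among them because mutant p53 is reported to affect it, and all 10 were found among the 26457 genes listed. The measurements are mRNA-seq of SW480, an established human colon cancer cell line whose only p53 is a mutant form (mutp53). One line expressed a doxycycline-inducible short hairpin RNA (shRNA) against LacZ, a bacterial gene that human cells lack (control), and the other a doxycycline-inducible shRNA against p53 (mutp53-depleted). Both lines were grown with puromycin and induced with doxycycline, and were measured without TNF-α (0 h) or 16 h into treatment with 12.5 ng/ml of it. Each of the 4 groups had 2 libraries, biological replicates A and B. The control and mutp53-depleted cells are separate stable lines, and whether they are clonal is not given in the sources used here, so that an effect of depletion and any other difference between the lines cannot be told apart.

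Superoxide, a by-product of respiration and of dedicated oxidases, is turned into hydrogen peroxide by SOD1 in the cytosol and by SOD2 in the mitochondrial matrix. NRF2 is held low by KEAP1, which hands it to a ubiquitin ligase for degradation. When KEAP1 is modified by oxidants or bound by the autophagy receptor SQSTM1 (p62), NRF2 accumulates, pairs with a small MAF protein and binds antioxidant response elements, where BACH1 competes with it. The enzymes it induces make glutathione, reduce thioredoxin and peroxiredoxins, detoxify quinones and break down heme. SOD2 is in addition a classical target of NF-κB, the factor that TNF-α activates, and p53 proteins have been linked to SLC7A11, the transporter that imports cystine for glutathione.

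The values are reads on the exons of each gene, scaled by the authors so that every library has the same total, and are called normalized reads. In the 8 libraries, between 6108488 and 13809578 reads fell on genes, and 1 read was worth between 0.67 and 1.515 normalized reads. Replicate A was the deeper library in every group. Changes were tested with limma on log2(normalized reads + 1) over the 14800 genes whose mean reached 2.5 normalized reads, all 10 antioxidant genes among them. A gene passed at an adjusted p under 0.05 (Benjamini-Hochberg over all genes tested), and log2 fold changes are given with their SE. With 2 libraries a group, the p-values rest on a spread shared by all groups.

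The TNF-α treatment was checked on 8 NF-κB target genes, and all 8 rose in both lines, against 11.1% of all genes tested in control and 9.8% in depleted cells. The list was chosen with earlier results of these data known, so it is not an independent check. NFKBIA, which encodes the inhibitor of NF-κB, had 131 and 114 normalized reads in the control line at 0 h (replicates A and B, in this order throughout), 1808 and 1568 at 16 h, 226 and 195 in depleted cells at 0 h, and 1097 and 1053 at 16 h. With depletion at 0 h, 5 of the 8 were higher and 1 lower, against 27.3% and 25.2% of all genes tested. At 16 h 1 was higher (BIRC3) and 4 were lower, against 24.9% and 26.5%. On the log2 scale, the rise was smaller in depleted cells for 7 of the 8 genes by the test of the interaction, TRAF1 being the exception (log2 difference 0.55, adjusted p = 0.234), when 2.21% of all genes tested passed as lower. The 7 became 4 with no filter and without replicate A of control cells at 0 h or at 16 h, and 5 with DESeq2. The calls of TNFAIP3, NFKB1 and ICAM1 among the 7 were lost under some of the alternatives, with adjusted p up to 0.0708, 0.265 and 0.378. The calls of BIRC3, NFKBIA, NFKB2 and RELB held under all 16.

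Markers of the cell type were read in every library. All 7 epithelial markers had reads in every group, KRT8 and KRT18 above the others in each library, and their summed level was 70708 and 66176 normalized reads in the control line at 0 h, 56292 and 56382 at 16 h, 52479 and 52452 in depleted cells at 0 h, and 42726 and 43889 at 16 h. These sums are carried by keratins. VIL1 had 545 and 480 normalized reads in untreated control cells, 125 and 112 at 16 h, 8.71 and 12.3 in untreated depleted cells, and 5.03 and 0 at 16 h. CDH1 went with TNF-α from 485 and 467 to 87.0 and 78.3 in control cells and from 275 and 265 to 58.7 and 61.7 in depleted cells. EPCAM had 5976 and 5687 normalized reads in untreated control cells against 2404 and 2367 in untreated depleted cells. CDX2 was lower with TNF-α in both lines and KRT19 higher. Both stood higher in depleted than in control libraries at 0 h and at 16 h, whereas the other epithelial markers, KRT8 and KRT18 included, stood lower. At 0 h CDX2 had 981 and 965 normalized reads in control and 1038 and 1082 in depleted cells. KRT19 had 7394 and 7114 against 8647 and 8716. The 5 fibroblast markers summed to 38.5 and 39.4 normalized reads in the control line at 0 h, 31.9 and 28.5 at 16 h, 158 and 177 in depleted cells at 0 h, and 56.2 and 59.2 at 16 h, with COL1A1 the most abundant and DCN without a read. The 5 leukocyte markers summed to between 42.4 and 83.9 normalized reads a library, mostly from CD68 and CD14, with PTPRC without a read. The 3 endothelial markers summed to between 5.7 and 28.8. VWF was the most abundant of them except in control 16 h replicate A, where CDH5 had 5.8 against 0.97. The part of these shifts in the results was not tested, and in bulk RNA fewer cells of a kind and less RNA per cell cannot be told apart.

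The antioxidant genes covered a wide range of levels. Per kilobase of exon, in control cells at 0 h, SOD1 led with 3302 ± 231 normalized reads (SD, n = 2), followed by NQO1 (736 ± 24.2), TXNRD1 (428 ± 27.1), SRXN1 (368 ± 32.0) and NFE2L2 (347 ± 14.2). SOD2 (163 ± 15.5), GCLM (140 ± 9.19) and GCLC (100.3 ± 2.91) came next, and HMOX1 (32.0 ± 3.34) and SLC7A11 (25.4 ± 5.39) were lowest. In this order SRXN1 and NFE2L2, SOD2 and GCLM, and HMOX1 and SLC7A11 had overlapping ranges of mean ± SD, and the other neighbours did not. After TNF-α the per-kilobase level of SOD2 reached 504 ± 64.3 in control and 385 ± 26.5 in depleted cells, and TXNRD1 reached 800 ± 17.1 and 1507 ± 104, which placed it directly after SOD1 in both. By their per-kilobase mean over the 8 libraries, the genes ranged from above 99% of all genes tested (SOD1) to above 25.9% (SLC7A11).

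**Figure D1:**
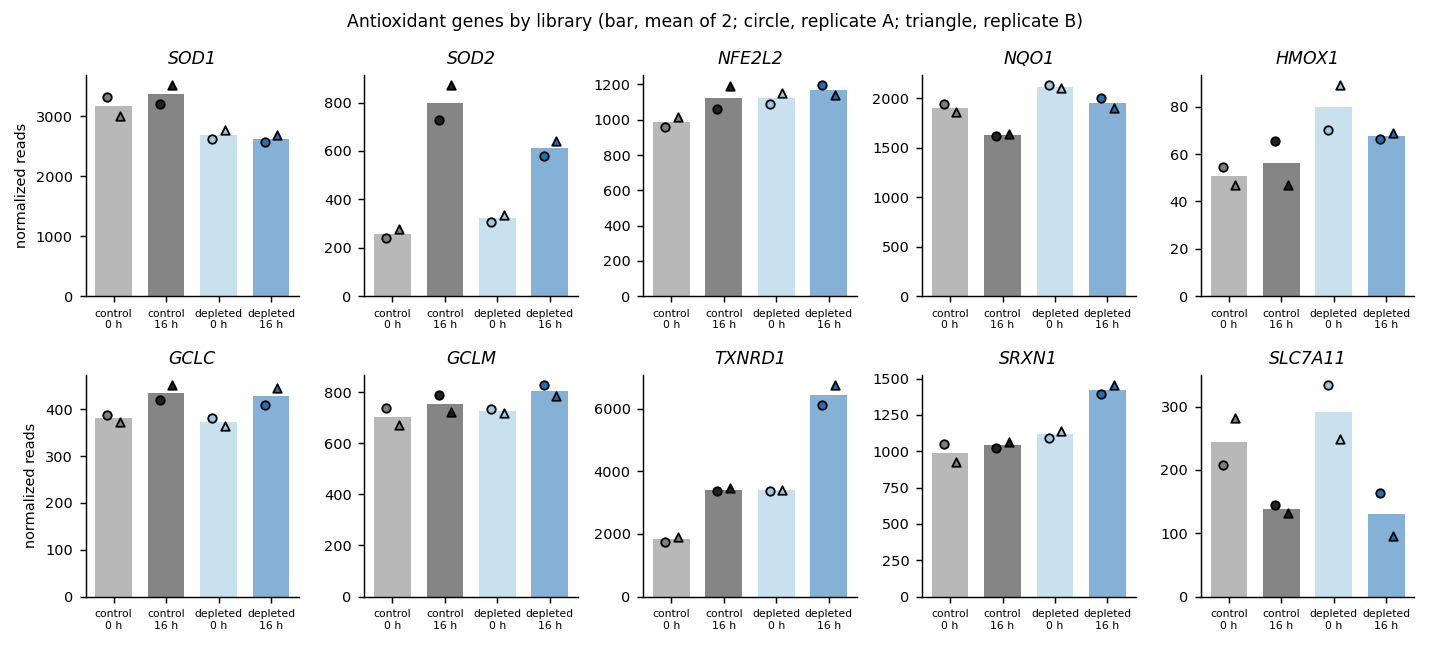
Normalized reads of the 10 antioxidant genes (y axes, from 0, each gene on its own scale) in the 4 groups (x axes), with the mean of 2 libraries as a bar, replicate A as a circle and replicate B as a triangle. SOD2 and TXNRD1 stand higher after TNF-α in both lines, with SOD2 at 728 and 872 in control cells at 16 h, whereas GCLC and GCLM change little.

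Promoter windows of RefSeq (GRCh38.p14, 250 bases before to 50 after a start site) were matched by symbol for 7 of the 10 genes, in 12 windows. SOD1, HMOX1 and SLC7A11 had no match. The core of the antioxidant response element, TGACNNNGC on either strand, was found in 3 of the 12 windows, those of GCLM and TXNRD1, and 13.3% of all 35116 windows hold it. The NF-κB consensus was found in none of the 12, the 4 windows of SOD2 included, against 11.3% of all windows. A match is only a run of letters in this window, and sites farther away were not searched. The 3 windows with a core are shown because TXNRD1 was the one of the 2 genes that rose with TNF-α while GCLM did not pass the test, with the core in capitals and each read along its gene.
GCLM, chr1:93909381-93909680, minus strand: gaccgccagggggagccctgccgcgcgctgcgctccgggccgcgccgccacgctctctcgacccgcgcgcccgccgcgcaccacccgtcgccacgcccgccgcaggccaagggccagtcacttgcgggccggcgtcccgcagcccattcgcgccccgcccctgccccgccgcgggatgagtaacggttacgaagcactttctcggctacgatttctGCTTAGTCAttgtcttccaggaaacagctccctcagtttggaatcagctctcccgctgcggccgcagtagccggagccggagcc
TXNRD1, chr12:104215529-104215828, plus strand: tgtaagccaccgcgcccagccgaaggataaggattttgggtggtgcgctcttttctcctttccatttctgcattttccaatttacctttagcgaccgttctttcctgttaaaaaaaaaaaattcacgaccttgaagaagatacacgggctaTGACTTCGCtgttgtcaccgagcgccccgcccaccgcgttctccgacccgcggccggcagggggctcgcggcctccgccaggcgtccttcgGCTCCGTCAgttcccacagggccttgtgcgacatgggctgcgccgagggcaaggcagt
TXNRD1, chr12:104286782-104287081, plus strand: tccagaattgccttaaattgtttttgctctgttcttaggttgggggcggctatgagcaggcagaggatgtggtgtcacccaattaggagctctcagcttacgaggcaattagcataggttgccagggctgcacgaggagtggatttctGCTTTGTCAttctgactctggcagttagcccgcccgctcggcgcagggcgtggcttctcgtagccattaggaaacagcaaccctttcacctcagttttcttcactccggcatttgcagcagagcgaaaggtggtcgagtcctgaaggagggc

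SOD2, the mitochondrial dismutase, had the largest TNF-α response of the 10 in control cells and was the one gene whose response differed between the lines by the test. In depleted cells the change of SLC7A11 was larger and that of TXNRD1 alike. The gene (NM_000636, hg19 chromosome 6, 160102755 to 160114353, minus strand) had 241 and 276 normalized reads in untreated control cells and 728 and 872 at 16 h. In mutp53-depleted cells it had 307 and 337 at 0 h and 581 and 641 at 16 h. The 4 groups did not overlap, with the depleted libraries above the control libraries at 0 h and below them at 16 h. TNF-α raised SOD2 3.08-fold in control cells (log2 fold change 1.62, SE 0.11, adjusted p = 1.62e-09) and 1.89-fold in depleted cells (0.92, SE 0.11, adjusted p = 3.43e-06). The response was therefore lower by 0.70 on the log2 scale in depleted cells (difference -0.70, SE 0.15, adjusted p = 0.013), which is a ratio of 1.63 between the fold changes.

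The smaller SOD2 response came from both ends. Before TNF-α, SOD2 was 1.25-fold higher in depleted than in control cells (0.32, SE 0.11, adjusted p = 0.018), and after 16 h it was 1.31-fold lower (-0.39, SE 0.11, adjusted p = 0.00569). The 50 tested genes nearest to SOD2 had a median of 0.11 at 0 h and 0.16 at 16 h, and with that median removed SOD2 no longer passed at 0 h (0.21, adjusted p = 0.126) and still passed at 16 h (-0.54, adjusted p = 0.00053). Here and below, the median was subtracted as a fixed value. Adjusted p-values with the neighbours removed therefore leave out the error of that median and the spread among the neighbours. At 0 h the call was also lost with DESeq2 (adjusted p = 0.0813), without control 0 h replicate A (0.22, adjusted p = 0.164) and without mutp53-depleted 0 h replicate B (0.25, adjusted p = 0.154), in a range over the alternatives of 0.00465 to 0.164. At 16 h it was lost without control 16 h replicate B (-0.26, adjusted p = 0.0968) and without mutp53-depleted 16 h replicate A (-0.32, adjusted p = 0.0656), in a range of 0.000317 to 0.0968. The difference in response was lost without control 0 h replicate A (-0.61, adjusted p = 0.0775), control 16 h replicate B (-0.57, adjusted p = 0.0816), mutp53-depleted 0 h replicate B (-0.64, adjusted p = 0.0951) or mutp53-depleted 16 h replicate A (-0.63, adjusted p = 0.0654), and kept its sign in all 16 alternatives (adjusted p from 0.00156 to 0.0951).

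**Figure D2:**
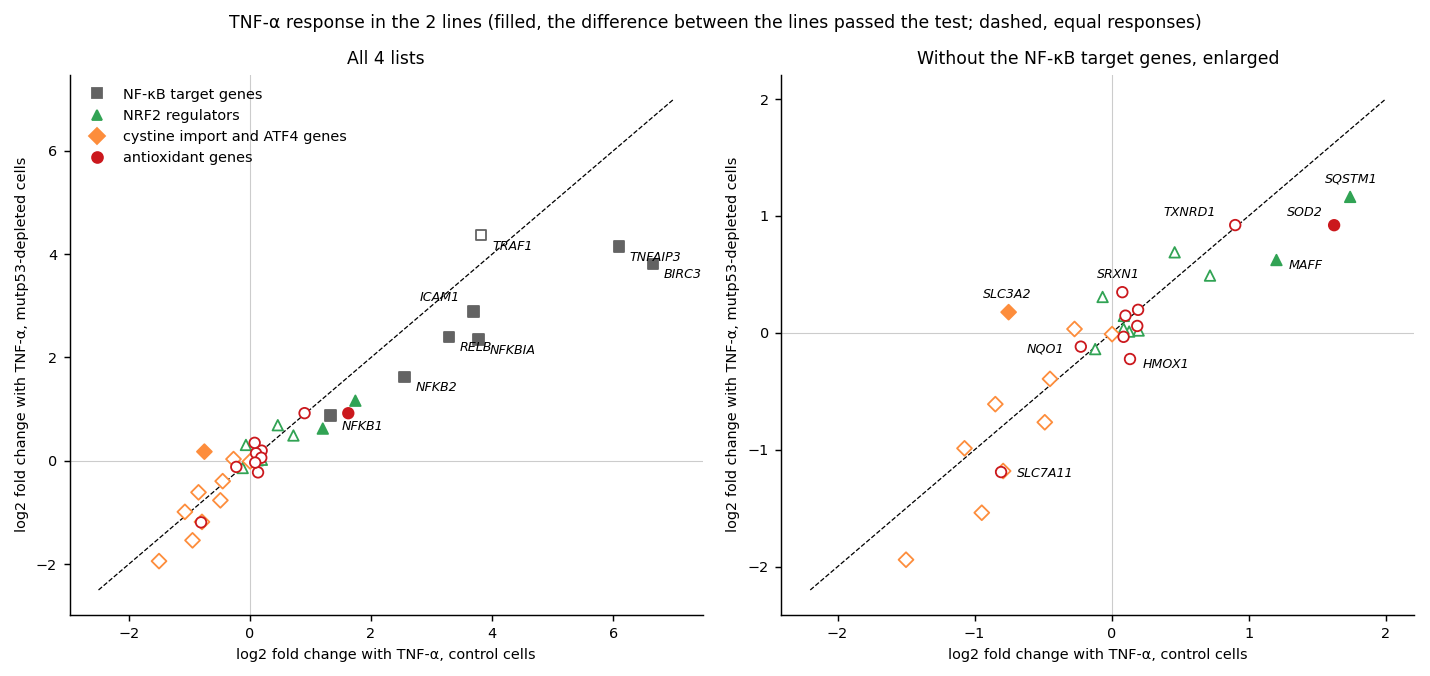
The log2 fold change with TNF-α in control cells (x axis) and in mutp53-depleted cells (y axis) of the tested antioxidant genes, NRF2 regulators, cystine import and ATF4 genes and NF-κB target genes, with the dashed line marking equal responses and filled symbols the genes whose difference passed the test. On the left all 4 lists are shown and on the right the NF-κB genes are left out; SOD2 lies below the line at 1.62 and 0.92, and TXNRD1 on it at 0.90 and 0.92.

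SOD1, the cytosolic dismutase, showed no TNF-α response that passed the test. It had 3319 and 3007 normalized reads in the control line at 0 h, 3204 and 3515 at 16 h, 2610 and 2760 in depleted cells at 0 h, and 2568 and 2677 at 16 h. The libraries at 0 h and 16 h overlapped in both lines, whereas the depleted libraries lay below the control libraries. With TNF-α its log2 fold change was 0.09 in control cells (95% confidence interval -0.07 to 0.24) and -0.03 in depleted cells (-0.19 to 0.12). Depletion lowered SOD1 1.18-fold at 0 h (-0.24, SE 0.07, adjusted p = 0.0116) and 1.28-fold at 16 h (-0.36, SE 0.07, adjusted p = 0.000503). The 50 tested genes nearest to SOD1 on chromosome 21 (hg19 33031935 to 33041243) had a median of -0.30 at 0 h and -0.39 at 16 h, and with it removed SOD1 stood at 0.07 (adjusted p = 0.465) and 0.03 (adjusted p = 0.772). At 0 h the call was also lost without control 0 h replicate A (-0.16, adjusted p = 0.127) and without mutp53-depleted 0 h replicate A (-0.20, adjusted p = 0.115), and the adjusted p of all alternatives lay between 0.0018 and 0.465 at 0 h and between 1.81e-05 and 0.772 at 16 h.

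NFE2L2, the gene of NRF2 itself, did not pass in any comparison. Its level was 959 and 1017 normalized reads in the control line at 0 h, 1062 and 1189 at 16 h, 1091 and 1153 in depleted cells at 0 h, and 1196 and 1142 at 16 h. The control libraries at 0 h were the lowest pair, and the other 3 groups overlapped. The log2 fold change with TNF-α was 0.19 in control cells (0.02 to 0.35, adjusted p = 0.0876) and 0.06 in depleted cells (-0.10 to 0.22), and with depletion 0.18 at 0 h (0.02 to 0.35, adjusted p = 0.056) and 0.06 at 16 h (-0.11 to 0.22). In control cells it passed with both edgeR tests (adjusted p = 0.0319 and 0.0345), with median ratio scaling (adjusted p = 0.0327) and without control 16 h replicate A (0.27, adjusted p = 0.0315). It did not pass with DESeq2 (adjusted p = 0.083), and the range was 0.0315 to 0.425. With depletion at 0 h it passed without control 16 h replicate A or B (adjusted p = 0.033 and 0.0335) and with the replicate letter in the model (adjusted p = 0.0418), and its neighbours on chromosome 2 had the same median of 0.18, in a range of 0.033 to 0.998.

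Of 10 NRF2 regulators, 4 rose with TNF-α in control cells and 5 in depleted cells, against 11.1% and 9.8% of all genes tested. SQSTM1, which takes KEAP1 away from NRF2, had 3625 and 3866 normalized reads in the control line at 0 h, 12007 and 13049 at 16 h, 6447 and 6439 in depleted cells at 0 h, and 14464 and 14393 at 16 h. Its rise was 1.74 on the log2 scale in control (adjusted p = 1.88e-12) and 1.16 in depleted cells (adjusted p = 8.2e-10), a difference of -0.58 (adjusted p = 0.00231). MAFF, a small MAF partner, rose by 1.20 and 0.62 (adjusted p = 9.68e-08 and 0.000259), and its difference of -0.58 (adjusted p = 0.0463) was lost with DESeq2, median ratio scaling, a pseudocount of 0.1, no filter and without each of 7 libraries, with adjusted p up to 0.251. BACH1, the competitor of NRF2, rose by 0.72 and 0.49, and MAFK, another small MAF partner, by 0.46 and 0.69, while MAFG rose in depleted cells (0.31, adjusted p = 0.00326). In control cells MAFG stood at -0.07, and the difference of 0.37 did not pass (adjusted p = 0.054). That difference passed with edgeR's quasi-likelihood test, median ratio scaling and the replicate letter in the model (adjusted p from 0.0366). It also passed with a mean of at least 10 or a pseudocount of 5 (adjusted p up to 0.0494). KEAP1 did not pass in any comparison, and its largest absolute log2 fold change among them was 0.09 (depletion at 0 h, -0.06 to 0.24).

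With depletion at 0 h, 5 of the 10 regulators rose and 1 fell, against 27.3% and 25.2% of all genes. With the neighbours removed 3 were higher and 2 lower, against 3334 and 3578 of all 14800 genes. SQSTM1 rose by 0.78 (adjusted p = 3.68e-08), MAFF by 0.65 (adjusted p = 5.44e-05), NFE2L1, a relative of NRF2, by 0.47 (adjusted p = 1.67e-05), CUL3, the scaffold of the ligase that KEAP1 serves, by 0.31 (adjusted p = 0.00154), and BACH1 by 0.23 (adjusted p = 0.0359). MAFK fell by 1.36 (adjusted p = 4.99e-10). At 16 h NFE2L1 (0.53), MAFG (0.25), SQSTM1 (0.21) and CUL3 (0.19) rose and MAFK (-1.13) fell, against 24.9% and 26.5% of all genes. With the neighbours removed 3298 of all 14800 genes were higher at 16 h and 3606 lower. The neighbours of MAFK had a median of -1.02 at 0 h and -1.01 at 16 h, and those of NFE2L1 a median of 0.57 and 0.55. With the neighbours removed NFE2L1 stood at -0.09 and -0.02, and MAFK at -0.34 and -0.12, the latter no longer passing (adjusted p = 0.235). The same step made SQSTM1 larger at 16 h (0.51, adjusted p = 1.45e-05) and BACH1 at 0 h (0.53, adjusted p = 5.45e-05), and BACH1 passed as higher at 16 h (0.38, adjusted p = 0.00111). The 16 h call of MAFG was lost with the neighbours removed (adjusted p = 0.0809) and without mutp53-depleted 16 h replicate A (adjusted p = 0.0598). The 16 h call of SQSTM1 was lost without control 16 h replicate A (adjusted p = 0.111) and without mutp53-depleted 16 h replicate A or B (adjusted p = 0.0917 and 0.0872), and the 0 h call of BACH1 with the count tests (adjusted p up to 0.168), with median ratio scaling (adjusted p = 0.0546) and without control 0 h replicate A or either depleted 0 h library (adjusted p up to 0.17). CUL3 no longer passed at 0 h with the neighbours removed (0.17, adjusted p = 0.0592), and at 16 h with DESeq2 (adjusted p = 0.086) and without control 16 h replicate A, either depleted 0 h library or mutp53-depleted 16 h replicate B (adjusted p up to 0.261). The 5 regulators that passed at 16 h became 3 with the neighbours removed and without control 16 h replicate A or either depleted 16 h library.

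TXNRD1, the reductase that keeps thioredoxin active, rose with TNF-α by nearly the same amount in both lines and was higher in depleted cells at both times. The gene (NM_001261445, hg19 chromosome 12, 104680460 to 104744085, plus strand) had 1745 and 1909 normalized reads in the control line at 0 h, 3361 and 3464 at 16 h, 3373 and 3402 in depleted cells at 0 h, and 6116 and 6741 at 16 h. Untreated depleted cells thus overlapped the control cells treated with TNF-α, and the depleted cells at 16 h stood above all other libraries. TNF-α raised it 1.87-fold in control (log2 fold change 0.90, SE 0.07, adjusted p = 1.87e-08) and 1.9-fold in depleted cells (0.92, SE 0.07, adjusted p = 1.84e-08), with a difference of 0.02 (95% confidence interval -0.19 to 0.23). Depletion raised it 1.86-fold at 0 h (0.89, SE 0.07, adjusted p = 8.62e-09) and 1.88-fold at 16 h (0.91, SE 0.07, adjusted p = 6.22e-09). The 50 neighbouring genes on chromosome 12 had a median of 0.71 at 0 h and 0.57 at 16 h. With that median removed the excess of TXNRD1 was 0.18 at 0 h (adjusted p = 0.0451) and 0.34 at 16 h (adjusted p = 0.000827), and the adjusted p stayed at or below these in the other alternatives.

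SRXN1, sulfiredoxin, which restores overoxidized peroxiredoxins, rose with TNF-α in depleted cells. It had 1050 and 929 normalized reads in the control line at 0 h, 1022 and 1064 at 16 h, 1095 and 1141 in depleted cells at 0 h, and 1392 and 1454 at 16 h. The depleted libraries at 16 h were the highest, and the control libraries at 0 h and 16 h overlapped. The rise was 1.27-fold in depleted cells (0.35, SE 0.08, adjusted p = 0.00238), against 0.08 in control cells (-0.08 to 0.24, adjusted p = 0.506). The difference between the lines was 0.27 (0.04 to 0.50) and did not pass (adjusted p = 0.254). Depletion raised SRXN1 1.36-fold at 16 h (0.45, SE 0.08, adjusted p = 8.81e-05), while its neighbours on chromosome 20 had a median of -0.19. At 0 h it stood at 0.18 (0.02 to 0.34, adjusted p = 0.0605) with a neighbour median of -0.16, and passed once that was removed (0.34, adjusted p = 0.00134) or without control 0 h replicate A (0.27, adjusted p = 0.0198), in a range of 0.00134 to 0.43.

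SLC7A11, the cystine transporter at the entry to glutathione synthesis, fell with TNF-α in both lines. The gene (NM_014331, hg19 chromosome 4, 139085248 to 139163503, minus strand) had 208 and 282 normalized reads in the control line at 0 h, 144 and 132 at 16 h, 334 and 250 in depleted cells at 0 h, and 164 and 96.3 at 16 h. Within each line the libraries at 16 h lay below those at 0 h, and the 2 lines overlapped at both times. These values rest on 287, 186, 149, 93, 498, 182, 196 and 78 reads in the same order. TNF-α lowered SLC7A11 1.75-fold in control (log2 fold change -0.81, SE 0.20, adjusted p = 0.00639) and 2.28-fold in depleted cells (-1.19, SE 0.20, adjusted p = 0.000242), with a difference of -0.38 that did not pass (95% confidence interval -0.99 to 0.22, adjusted p = 0.625). In control cells the call was lost with DESeq2 (-0.78, adjusted p = 0.101), without control 0 h replicate B (-0.59, adjusted p = 0.124) and without control 16 h replicate B (-0.75, adjusted p = 0.059), in a range of 0.000355 to 0.124, whereas in depleted cells it held in all 17 alternatives (0.012 at most).

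Depletion of mutp53 itself did not change SLC7A11 by this test. Its log2 fold change was 0.25 at 0 h (95% confidence interval -0.18 to 0.68, adjusted p = 0.319) and -0.13 at 16 h (-0.56 to 0.30, adjusted p = 0.613). The neighbours on chromosome 4 had a median of 0.32 at 0 h and 0.23 at 16 h. Without mutp53-depleted 16 h replicate A the 16 h value was -0.52 (adjusted p = 0.0414, in a range of 0.0414 to 0.882). The intervals leave room for a change of either sign at 0 h and 16 h.

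GCLC and GCLM, the catalytic and the modifier subunit of the enzyme that limits glutathione synthesis, did not pass in any of the 5 comparisons. GCLC had 388 and 373 normalized reads in the control line at 0 h, 420 and 451 at 16 h, 381 and 363 in depleted cells at 0 h, and 409 and 446 at 16 h. In both lines its libraries at 16 h lay above those at 0 h, with log2 fold changes of 0.19 (-0.01 to 0.39) in control and 0.20 (-0.001 to 0.40) in depleted cells. In depleted cells GCLC passed with the edgeR exact test (0.25, adjusted p = 0.0428) and with median ratio scaling (0.26, adjusted p = 0.045), in a range of 0.0428 to 0.509. GCLM had 737 and 671 normalized reads in the control line at 0 h, 789 and 721 at 16 h, 734 and 720 in depleted cells at 0 h, and 827 and 784 at 16 h, and its largest log2 fold change of the 5 was 0.15 (TNF-α in depleted cells, -0.03 to 0.32). With depletion GCLC stood at -0.03 at both times and GCLM at 0.05 and 0.09.

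The partner of SLC7A11 and genes of the amino acid response make up a list of 10. Of these, 9 fell with TNF-α in control cells and 7 in depleted cells, against 15.2% and 16.9% of all genes, with medians of -0.77 and -0.69 against -0.05 and -0.06 over all genes tested. DDIT3 passed in neither line, and SLC3A2 and ATF4 did not pass in depleted cells. In control cells the CTH call was lost with DESeq2 (adjusted p = 0.169) and no filter (adjusted p = 0.0688). Those of CTH, ATF4 and CHAC1 were lost without some libraries. In depleted cells the SESN2 call was lost with DESeq2 (adjusted p = 0.0567), and those of SESN2 and TRIB3 without mutp53-depleted 0 h replicate A. SLC3A2, the heavy chain that carries SLC7A11 to the membrane, had 10615 and 10084 normalized reads in the control line at 0 h, 6739 and 5600 at 16 h, 6174 and 5493 in depleted cells at 0 h, and 6791 and 6387 at 16 h. It fell in control cells (-0.75, adjusted p = 2.2e-06) and stood at 0.18 in depleted cells (adjusted p = 0.139; it passed as higher with the count tests and median ratio scaling, adjusted p from 0.0363), a difference of 0.93 (adjusted p = 0.000178) that held in all 16 alternatives. With depletion SLC3A2 fell at 0 h (-0.83, adjusted p = 2.29e-07), and its value at 16 h was 0.10 (adjusted p = 0.344), which passed without control 16 h replicate A (0.23, adjusted p = 0.0315) and with the neighbours removed (0.23, adjusted p = 0.0382). PSAT1, an enzyme of serine synthesis, fell by 1.07 in control and 0.99 in depleted cells (adjusted p = 2.46e-08 and 9.94e-08).

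With depletion at 0 h, 3 of these 10 genes rose and 2 fell, against 27.3% and 25.2% of all genes. DDIT3, a stress-induced transcription factor, had 148 and 129 normalized reads in control cells and 610 and 566 in depleted cells at 0 h, a rise of 2.08 (adjusted p = 1.13e-10), and rose by 2.07 at 16 h (adjusted p = 1.11e-10). TRIB3 rose by 0.60 at 0 h and 0.66 at 16 h, and ATF4, the factor that drives these genes, by 0.38 (adjusted p = 0.00019) and 0.68 (adjusted p = 2.17e-07). CBS, an enzyme of the route from methionine to cysteine, fell by 1.76 at 0 h and 2.36 at 16 h, with a neighbour median of -0.57 and -0.59, and reads of a near-identical copy in newer genome builds could be shared with it. At 16 h SESN2 (0.39) and ASNS (-0.22) passed as well, close to the threshold (adjusted p = 0.041 and 0.0406). The SESN2 call was lost with DESeq2 (adjusted p = 0.184), with both edgeR tests and without 5 of the 8 libraries, and the ASNS call with DESeq2 (adjusted p = 0.117), no filter, the neighbours removed (-0.07, adjusted p = 0.546) and without 5 libraries.

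NQO1, a quinone reductase often read as a gauge of NRF2 activity, changed by small amounts. It had 1944 and 1856 normalized reads in the control line at 0 h, 1615 and 1635 at 16 h, 2130 and 2099 in depleted cells at 0 h, and 1999.5 and 1898 at 16 h. The control libraries at 16 h were the lowest and the depleted libraries at 0 h the highest. TNF-α lowered NQO1 1.17-fold in control cells (-0.23, SE 0.07, adjusted p = 0.0182), against -0.12 in depleted cells (-0.26 to 0.02), with a difference of 0.11 (-0.09 to 0.31). The call in control cells was lost with DESeq2 (adjusted p = 0.0992), without control 0 h replicate A (-0.19, adjusted p = 0.107) and without control 16 h replicate A (-0.22, adjusted p = 0.0512), in a range of 0.0124 to 0.107. Depletion raised NQO1 1.2-fold at 16 h (0.26, SE 0.07, adjusted p = 0.0032), with a neighbour median of -0.14. At 0 h it stood at 0.16 (0.01 to 0.30, adjusted p = 0.0616) and passed with the neighbours removed (0.22, adjusted p = 0.0129) or without control 16 h replicate A or B (adjusted p = 0.0434 and 0.0436), in a range of 0.0129 to 0.242.

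HMOX1, the inducible heme oxygenase that NRF2 and BACH1 control in opposite directions, was low in all libraries. It had 54.4 and 47.0 normalized reads in the control line at 0 h, 65.7 and 47.0 at 16 h, 70.4 and 89.1 in depleted cells at 0 h, and 66.2 and 69.1 at 16 h, from 75, 31, 68, 33, 105, 65, 79 and 56 reads. The control libraries at 0 h lay below the depleted libraries at 0 h, while the 0 h and 16 h libraries overlapped in control cells. Depletion raised HMOX1 1.56-fold at 0 h (0.64, SE 0.23, adjusted p = 0.0241), and at 16 h the log2 fold change was 0.28 (-0.20 to 0.75, adjusted p = 0.317). The call at 0 h was lost with DESeq2 (0.60, adjusted p = 0.112), without control 0 h replicate B (0.53, adjusted p = 0.13) and without mutp53-depleted 0 h replicate B (0.47, adjusted p = 0.212), in a range of 0.0158 to 0.212. With TNF-α the value was 0.13 in control (-0.34 to 0.61) and -0.22 in depleted cells (-0.70 to 0.25).

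The other heme breakdown genes read were HMOX2, a second heme oxygenase, and the biliverdin reductases BLVRA and BLVRB. HMOX2 did not pass in any comparison, and its largest absolute log2 fold change was 0.14 (TNF-α in control cells, -0.03 to 0.30). BLVRB fell with TNF-α in control cells (-0.43, adjusted p = 0.0124), and BLVRB and BLVRA fell in depleted cells (-0.78, adjusted p = 9.43e-05, and -0.35, adjusted p = 0.00943). The BLVRB call in control cells was lost with DESeq2 (adjusted p = 0.114), without control 0 h replicate B (adjusted p = 0.0893) and without control 16 h replicate A (adjusted p = 0.054), and the BLVRA call with DESeq2 (adjusted p = 0.111) and without mutp53-depleted 0 h replicate B (adjusted p = 0.0893) or 16 h replicate A (adjusted p = 0.12). With depletion BLVRA stood at -0.38 at 0 h and -0.48 at 16 h, in a stretch of chromosome 7 with neighbour medians of -0.84 and -0.87. After removal of these medians it passed with the opposite sign (0.47, adjusted p = 0.000288, and 0.39, adjusted p = 0.00126), in a test that takes the medians as known. BLVRB stood at 0.28 at 0 h (adjusted p = 0.0639) and -0.07 at 16 h (adjusted p = 0.673). With its neighbours removed it passed as lower at 16 h (-0.51, adjusted p = 0.00317).

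**Figure D3:**
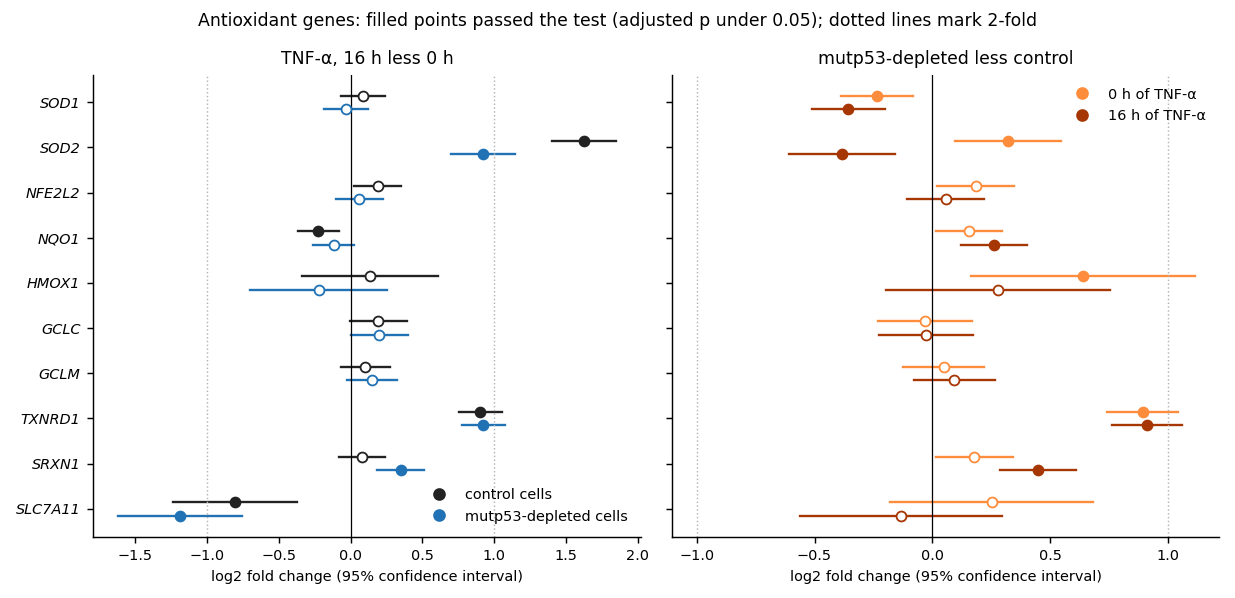
Log2 fold changes of the 10 antioxidant genes (x axes) with their 95% confidence intervals as lines, for TNF-α in either line (left) and for depletion at 0 h and at 16 h (right). Filled points passed the test and dotted lines mark 2-fold; SOD2 in control cells (1.62) and SLC7A11 in depleted cells (-1.19) are past 2-fold, and SOD2 changes side between 0 h (0.32) and 16 h (-0.39) of depletion.

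Counted together, 4 of the 10 antioxidant genes passed with TNF-α in control cells. SOD2 and TXNRD1 rose, against 11.1% of all genes tested, and NQO1 and SLC7A11 fell, against 15.2%. SOD2 alone of these was past 2-fold, which 2.97% of all genes reached as higher and 4.27% as lower. In depleted cells 4 passed, with TXNRD1, SOD2 and SRXN1 higher (9.8% of all genes) and SLC7A11 lower (16.9%). There SLC7A11 was past 2-fold, as were 4.5% of all genes as lower and 1.86% as higher. The median log2 fold change of the 10 was 0.12 in control and 0.10 in depleted cells, against -0.05 and -0.06 over all genes. Of all genes that passed in depleted cells, 36.7% were higher, and 50.6% with median ratio scaling. In control cells these shares were 42.4% and 51.0%.

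With depletion, TXNRD1, HMOX1 and SOD2 were higher at 0 h and SOD1 was lower, when 27.3% of all genes tested were higher and 25.2% lower. At 16 h TXNRD1, NQO1 and SRXN1 were higher (24.9% of all genes) and SOD1 and SOD2 lower (26.5%). With the neighbours removed 4 were higher at 0 h (TXNRD1, HMOX1, NQO1 and SRXN1) and 0 lower, and at 16 h TXNRD1, NQO1 and SRXN1 were higher and SOD2 lower. With this step 3334 of all 14800 genes were higher and 3578 lower at 0 h, and 3298 and 3606 at 16 h. The changes of the 10 with depletion stayed under 2-fold, which all genes passed in 5.89% (higher) and 9.55% (lower) at 0 h and in 5.03% and 10.2% at 16 h. For the interaction, 1 of the 10 passed, SOD2 as lower, against 2.21% of all genes lower and 0.655% higher. The median of the 10 was 0.18 at 0 h, 0.08 at 16 h and -0.06 for the interaction, against 0.03, -0.01 and -0.03 over all genes. The depletion comparisons share libraries with the TNF-α comparisons, so their counts are not separate evidence.

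**Figure D4:**
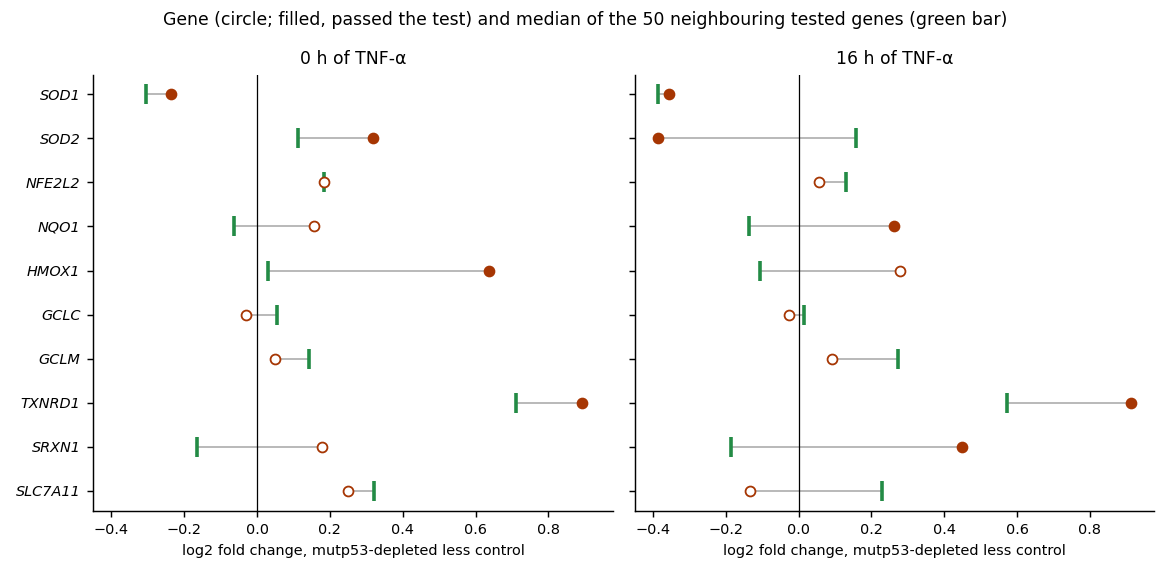
Log2 fold change of depletion (x axes) for the 10 antioxidant genes as circles, filled where the test was passed, and the median of the 50 neighbouring tested genes as a green bar, at 0 h (left) and 16 h (right) of TNF-α. At 0 h SOD1 lies close to that median (-0.24 and -0.30) and TXNRD1 above it (0.89 and 0.71), and SOD2 at 16 h lies on the other side of 0 from it (-0.39 and 0.16).

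A gene that reaches the mean of 2.5 only through the group where it is high had to differ, so the counts of the lists below leave out genes under 2.5 in either group compared, a step chosen after the data were seen. The numbers for all genes set beside them cover all 14800 genes tested, without this step. Among 20 other NRF2 target genes 17 were tested, and of the 15 counted 2 rose with TNF-α in control cells and 2 fell, against 11.1% and 15.2% of all genes. These counts depend on the test, with 4 higher and 2 lower by both edgeR tests, 3 and 2 by DESeq2 or with median ratio scaling, and 2 and 4 with the replicate letter in the model. FTH1, the heavy chain of ferritin, rose by 0.49 (adjusted p = 0.000322) and TXN, thioredoxin, by 0.21 (adjusted p = 0.032, lost without 6 of the 8 libraries), while EPHX1, an epoxide hydrolase, fell by 0.58 (adjusted p = 6.53e-05) and PGD, of the pentose phosphate pathway, by 0.34 (adjusted p = 0.00207). In depleted cells EPHX1, ME1, UGDH and PGD fell, by 0.43, 0.36, 0.24 and 0.23, against 16.9% of all genes lower and 9.8% higher. The calls of ME1, UGDH and PGD were lost with DESeq2 and without some libraries, and those of UGDH and PGD also with both edgeR tests and median ratio scaling, with adjusted p up to 0.106, 0.287 and 0.259. With depletion TKT (0.34) passed as higher at 0 h and 6 of the 16 counted as lower, against 27.3% and 25.2% of all genes. But with the neighbours removed 4 were higher and 4 lower, against 3334 and 3578 of all 14800 genes. Without mutp53-depleted 0 h replicate A the 7 calls became 5. The neighbours of TKT had a median of 0.31, which leaves 0.035. ABCC2 had 0 and 0 reads in control cells at 0 h against 13 and 2 in depleted cells, so that it was tested only because of the depleted libraries and its call is not counted. At 16 h TKT (0.34) passed as higher and 8 of 15 genes as lower, against 24.9% and 26.5% of all genes. With the neighbours removed 2 were higher and 6 lower, against 3298 and 3606 of all 14800 genes. The neighbours of TKT had a median of 0.28 there, which leaves 0.064. ABCC3, an export pump for conjugates, fell by 1.64 at 0 h and 1.77 at 16 h, and EPHX1 by 1.51 and 1.36.

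Of 20 other antioxidant enzymes, 19 were tested. With TNF-α in control cells GPX1 (0.52) and GPX4 (0.34) rose and 6 fell, against 11.1% and 15.2% of all genes, and in depleted cells GPX1 (0.22) rose and 7 fell, against 9.8% and 16.9%. In depleted cells GPX4 stood at 0.18 (adjusted p = 0.092). There it passed as higher with DESeq2, both edgeR tests and median ratio scaling (adjusted p from 0.017 to 0.0311). The GPX4 call was lost without control 0 h replicate B (adjusted p = 0.0543), and the GPX1 call in depleted cells with no filter, a pseudocount of 0.1 and without each depleted library (adjusted p up to 0.3). Those 8 calls in depleted cells became 4 without mutp53-depleted 0 h replicate A and 5 without 16 h replicate A. GPX8, a glutathione peroxidase of the endoplasmic reticulum, fell by 1.29 and 1.36 (adjusted p = 2.38e-05 and 1.7e-05), and CAT, catalase, by 0.72 and 1.00 (adjusted p = 0.000573 and 2.29e-05). CAT had 391 and 309 normalized reads in untreated control cells and 212 and 209 at 16 h, and 407 and 357 against 215 and 168 in depleted cells. With depletion GPX2 is not counted, as it was tested only because of the control libraries (10, 7, 5 and 3 reads, against 1, 0, 0 and 0 in depleted cells). Of the other 18, 4 rose and 6 fell at 0 h, against 27.3% and 25.2% of all genes, and 4 rose and 5 fell at 16 h, against 24.9% and 26.5%. With the neighbours removed 2 were higher and 5 lower at 0 h, and 2 and 6 at 16 h. Among all 14800 genes this step left 3334 higher and 3578 lower at 0 h, and 3298 and 3606 at 16 h. PRDX2, a cytosolic peroxiredoxin, fell by 0.80 (adjusted p = 3.34e-08) and 0.88 (adjusted p = 8.58e-09), and GPX4 by 0.46 (adjusted p = 6e-05) and 0.62 (adjusted p = 2.11e-06). The other 4 that fell at 0 h lay between -0.37 and -0.49, and the other 3 at 16 h between -0.36 and -0.69. With the neighbours removed GPX4 stood at -0.20 and -0.37 and still passed. PRDX3 rose by 0.33 and 0.30 and PRDX6 by 0.21 and 0.20, and GPX8 (0.54 and 0.48), GPX1 at 0 h (0.32) and GLRX at 16 h (0.41) rose. The GPX8 calls with depletion were lost with the neighbours removed (adjusted p = 0.125 at 0 h and 0.122 at 16 h) and without some libraries, and at 16 h also with no filter. Without mutp53-depleted 16 h replicate A the 16 h value of GPX8 was 0.12 (adjusted p = 0.597). The PRDX6 calls were lost with the neighbours removed (0.07, adjusted p = 0.414, and 0.06, adjusted p = 0.489) and without some libraries, and at 0 h also with DESeq2 (adjusted p = 0.0517). Those of PRDX3 were lost without control 0 h replicate B (adjusted p = 0.0538) at 0 h and without control 16 h replicate A (adjusted p = 0.0521) at 16 h.

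On the side of oxidant production, 5 of 15 oxidase genes were tested, the others having a mean under 2.5 normalized reads. The catalytic subunits were among those not tested, and NOX3, NOX4, NOX5 and DUOX2 had 0 reads in every library. NOX1 had 2 reads in mutp53-depleted 16 h replicate A and 0 in the other libraries. DUOX1 had 1 read in mutp53-depleted 0 h replicate A, and CYBB had 4 and 1 in control cells at 0 h. The changes below are thus of accessory subunits, and oxidant production was not measured. CYBA, the membrane subunit shared by several NADPH oxidases, rose with TNF-α by 0.56 in control (adjusted p = 0.00217) and 0.44 in depleted cells (adjusted p = 0.0125). NCF4 had 0 reads in all 4 libraries at 0 h and 13, 4, 8 and 2 at 16 h, so that it was tested only because of the treated libraries and its calls are not used. NOXA1 fell by 1.06 and 0.74 (adjusted p = 0.00223 and 0.0256). The CYBA call was lost without control 16 h replicate A (0.33, adjusted p = 0.0669) in control cells and with DESeq2 (adjusted p = 0.0773) or without mutp53-depleted 0 h replicate B or 16 h replicate A (adjusted p = 0.165 and 0.173) in depleted cells. The NOXA1 call in depleted cells was lost with DESeq2, both edgeR tests and no filter and without some libraries, with adjusted p up to 0.345. With depletion CYBA, NOXA1 and NOXO1, the last pair being the activator and organizer of the NOX1 oxidase, fell at both times, when 25.2% and 26.5% of all genes were lower. Their log2 fold changes at 0 h and 16 h were -1.48 and -1.60 for CYBA, -1.78 and -1.45 for NOXA1 and -3.05 and -2.99 for NOXO1, the last from 43.5 and 43.9 to 4.69 and 4.11 normalized reads at 0 h. With the neighbours removed all 3 still passed, at -1.21 and -1.47 for CYBA, -1.11 and -0.89 for NOXA1 and -2.72 and -2.69 for NOXO1. With that step 3578 of all 14800 genes were lower at 0 h and 3606 at 16 h. For the interaction, with every tested gene kept, limma called no gene of the NRF2 targets, other antioxidant enzymes, oxidases and heme genes; at an unadjusted p under 0.05 there were 1, 2, 1 and 0, edgeR's quasi-likelihood test called 1, 0, 0 and 0 and DESeq2 called 1, 0, 0 and 0. Of all 14800 genes 2005 were at an unadjusted p under 0.05 there, and limma called 424, edgeR's quasi-likelihood test 456 and DESeq2 293.

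**Figure D5:**
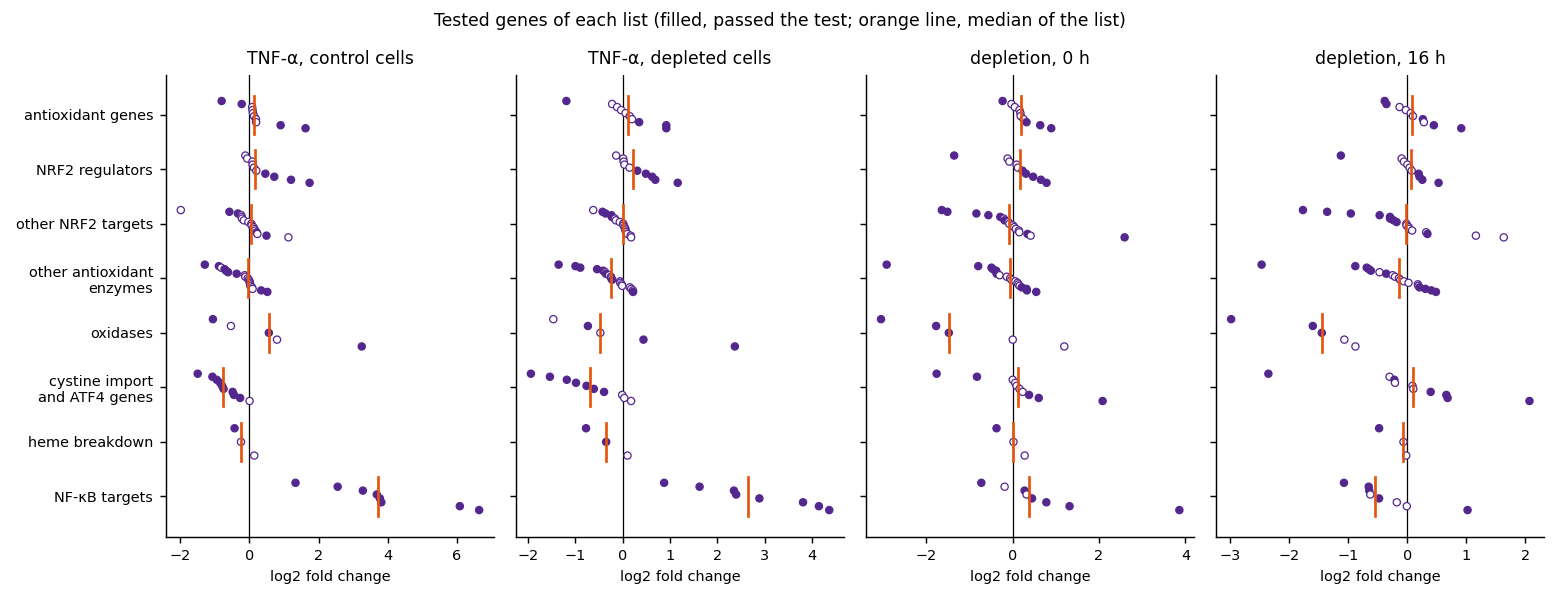
Log2 fold changes (x axes, each panel on its own scale) of the tested genes of 8 lists (rows) for TNF-α in both lines and depletion at 0 h and 16 h, with filled points for genes that passed and an orange line at the median of each list. The NF-κB target genes lie to the right in both TNF-α panels and the cystine import and ATF4 genes to the left, with medians of -0.77 and -0.69, while the antioxidant genes lie on both sides of 0.

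The genes whose pattern over the 8 libraries was most like that of SOD2, among 11022 tested genes whose mean reached 50, were ABR (Pearson r = 0.994), ADAR (0.992), SGK1 (0.992), IKBKE (0.991) and PARP1 (0.991). IKBKE, a kinase of the NF-κB and interferon pathways, had 162 and 179 normalized reads in the control line at 0 h, 905 and 913 at 16 h, 248 and 237 in depleted cells at 0 h, and 620 and 629 at 16 h. As the 5 genes were picked by their likeness to SOD2 in these libraries, their changes are given as a description only. The log2 fold change with depletion at 0 h and 16 h was 0.14 and -0.16 for ABR, 0.11 and -0.10 for ADAR, 0.80 and -0.89 for SGK1, 0.51 and -0.54 for IKBKE, and 0.21 and -0.11 for PARP1. Those most like SLC7A11 were GOLGA2P5 (0.985), ACBD4 (0.976), LINC01089 (0.973), DAG1 (0.970) and MYLIP (0.968). ACBD4 had 88.5 and 98.5 normalized reads in the control line at 0 h, 55.1 and 45.5 at 16 h, 127 and 100.1 in depleted cells at 0 h, and 50.3 and 25.9 at 16 h. These coefficients describe 8 libraries in 4 groups and share the library factors.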

How the data were processed

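The authors mapped 50-base single-end reads of strand-specific poly(A) libraries with STAR, counted reads on the exons of RefSeq genes by strand with HOMER, and deposited them as a signal, the reads times 1 factor per library. The table's header and coordinates give hg19, whereas the methods name hg38, so positions are as listed. The log2 fold changes, p-values and adjusted p-values of 4 comparisons that the authors deposited, made with edgeR, were not used. Reads came out whole (within 0.05 of a read) for 100.0% of values in each library.

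The fit was made in R 4.3.3 by limma 3.58.1, through lmFit, contrasts.fit and a trended eBayes, in a model of 4 group means on log2(value + 1). It was first tested on simulated data. The planned test for normalized values was used. As a count test on the recovered reads, edgeR 4.0.16 (quasi-likelihood, TMM) called 4097 genes for TNF-α in control cells, 4349 in depleted cells, 8013 and 7620 for depletion at 0 h and 16 h and 456 for the interaction, against 3891, 3957, 7771, 7593 and 424 with limma. Other alternatives were edgeR's exact test, DESeq2 1.42.0, median ratio scaling, no filter, a higher filter (mean of 10), pseudocounts of 0.1 and 5, the replicate letter as a block, removal of the median of the 50 neighbouring tested genes from the depleted libraries, and leaving out each library. The summaries used Python 3.11.15 with pandas 2.3.3 and numpy 2.4.6, and the figures matplotlib 3.10.9. Removal of the neighbours' median was set for the 10 genes before the files were read, with regional differences known from earlier work on these data. The checks of other lists and of other named genes, and leaving genes under 2.5 in either compared group out of list counts, were added after the data were seen.

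The members and the gene lists were chosen with earlier results of these data known. The rule named the 10 genes, the NF-κB list, the 5 genes most correlated with SOD2 and with SLC7A11, and up to 3 genes with the largest change among those that passed in each other list and comparison. Not all genes under the rule are reported. VIL1, CDH1, EPCAM, CDX2, KRT19, KEAP1, CUL3, TXN, TKT, GPX1, GPX4, PRDX3, PRDX6, TRIB3, SESN2, ASNS, TALDO1 and HMOX2 were named after their values were seen. The ChIP-seq and GRO-seq data were not analysed here.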

Additional observations from a re-analysis of the deposited data

Results flagged for a closer look

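The genes listed here had a TNF-α response that differed between the control and mutp53-depleted lines by the interaction term of limma, adjusted over all 14800 genes. SOD2 had a log2 difference (depleted less control) of -0.70 (adjusted p = 0.013), from 241 and 276 to 728 and 872 normalized reads in control cells and from 307 and 337 to 581 and 641 in depleted cells. SQSTM1 (-0.58, adjusted p = 0.00231) and MAFF (-0.58, adjusted p = 0.0463) rose less in depleted cells. The SQSTM1 call held in all 16 alternatives, whereas that of MAFF was lost in most of them. The calls of SOD2 and, among the NF-κB target genes below, of TNFAIP3, NFKB1 and ICAM1 were lost in some. SLC3A2 (0.93, adjusted p = 0.000178) fell in control cells from 10615 and 10084 to 6739 and 5600 normalized reads and stood at 6174 and 5493, then 6791 and 6387, in depleted cells. NF-κB target genes with a smaller fold change in depleted cells were BIRC3 (-2.84, adjusted p = 1.46e-05), TNFAIP3 (-1.95, adjusted p = 0.0113), NFKBIA (-1.43, adjusted p = 2.61e-05), NFKB2 (-0.93, adjusted p = 6.68e-05), RELB (-0.89, adjusted p = 0.00518), ICAM1 (-0.80, adjusted p = 0.0397) and NFKB1 (-0.46, adjusted p = 0.0344). BIRC3 went from 7.98 and 16.7 to 1371 and 1169 normalized reads in control cells and from 188 and 176 to 2591 and 2541 in depleted cells. Only its fold was smaller, with depleted cells above control cells at 0 h (3.86, adjusted p = 2.91e-11) and at 16 h (1.02, adjusted p = 0.000272). SGK1 (-1.69, adjusted p = 0.00483) and IKBKE (-1.05, adjusted p = 0.00015), both most like SOD2 over the libraries, were chosen by that likeness, so their difference is a description.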

How the results depend on the processing

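Of 860 log2 fold changes of the 10 genes recomputed under the alternatives, 822 kept their side of the threshold (with no direction read where neither value passed), 21 no longer passed with the same sign and 15 passed newly. The other 2 changed sign and no longer passed either, SOD1 with depletion once the neighbouring genes were removed (0.069 at 0 h and 0.029 at 16 h, both near 0). DESeq2 moved the count of the 10 genes that passed with TNF-α in control cells from 4 to 2 and that with depletion at 0 h from 4 to 2. With every library kept, the other alternatives gave 4 or 5 with TNF-α in either line and with depletion at both times, and 1 for the interaction. Over the libraries left out in turn, each leaving a lone library assumed to vary like the other groups, the counts were 3 to 4 with TNF-α in control cells, 4 in depleted cells, 2 (without mutp53-depleted 0 h replicate B) to 6 (without control 16 h replicate A or B) with depletion at 0 h, 4 to 5 at 16 h and 0 to 1 for the interaction. Among other named genes, checked after the data were seen, 5286 of 5575 values kept their side and 9 changed sign, all with the neighbouring genes removed: NFE2L1 (-0.093 and -0.024, neither passing), BLVRA (0.47 and 0.39), UGDH at 0 h (-0.24), RELB at 0 h (0.38), BACH1 at 16 h (0.38) and TALDO1 (0.31 and 0.20). The counts of the other lists moved by over 1.5 times in 40 of 602 cases. Median ratio scaling changed the genes called higher and lower with TNF-α in depleted cells from 1451 and 2506 to 2058 and 2009. In control cells it changed them from 1648 and 2243 to 2016 and 1935. The letters A and B name replicates, and whether they pair libraries across groups is not given in the sources used here. Correlations of the A less B differences between groups ran from -0.077 to 0.216, which cannot settle it. With the replicate block the counts of the 10 were 4, 4, 5, 5 and 1. Over all genes the block gave 4158, 4218, 7961, 7778 and 559 calls, against 3891, 3957, 7771, 7593 and 424 without it. The edgeR exact test gives no interaction, and the neighbouring genes were removed for depletion only. The cause of these shifts was not tested. Low read counts limit HMOX1 and SLC7A11. Their fewest reads in a library were 31 (control 0 h replicate B) and 78 (mutp53-depleted 16 h replicate B). The 2 libraries a group limit every interval.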
